A study of Mus musculus with 26 samples.

Results

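The expression of 10 genes of transforming growth factor beta (TGF-beta) and bone morphogenetic protein (BMP) signaling was examined in murine EML4-ALK lung cancer cells treated with an ALK inhibitor. The 10 genes are the ligands Tgfb1, Tgfb2, Tgfb3 and Bmp4, the receptor Tgfbr2, the inhibitory Smads Smad6 and Smad7, and the inhibitor of DNA binding genes Id1, Id2 and Id3. They were taken by gene symbol from a table of 55391 named genes, and all 10 were among the 14264 genes with enough reads to be tested. EA1, EA2 and EA3 are cell lines from lung tumors of C57BL/6 mice, each driven by the EML4-ALK fusion. Each line was cultured with 100 nM alectinib, which inhibits the ALK kinase, or with its solvent DMSO at 0.1%, and messenger RNA was sequenced on days 1, 2, 3 and 5. That gives 24 libraries, 4 for each line and treatment, with 1 library per line, treatment and day. The 4 days of a line stood in as its replicates, so the spread given here holds time in culture as well as the error between cultures.

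TGF-beta ligands are secreted in a latent form, are released outside the cell, and bring the type II receptor TGFBR2 together with a type I receptor that phosphorylates SMAD2 and SMAD3. BMP ligands use other receptors and phosphorylate SMAD1, SMAD5 and SMAD8, which switch on Id1, Id2, Id3 and Smad6. SMAD6 and SMAD7 feed back on the receptors, SMAD6 mainly on the BMP arm and SMAD7 on both arms, and ID proteins hold E proteins and related transcription factors away from DNA. In lung epithelium and carcinoma TGF-beta is known for growth arrest, matrix production and a shift toward a mesenchymal state, so the ID and inhibitory Smad genes are commonly read as transcriptional outputs of the pathway.

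In the GENCODE annotation of the mm10 mouse genome, Tgfb2 covers chr1:186622792-186705989 on the minus strand, Tgfb3 chr12:86056745-86079041 on the minus strand, Tgfb1 chr7:25687002-25705077 on the plus strand and Tgfbr2 chr9:116084293-116175360 on the minus strand. Bmp4 covers chr14:46383520-46390669 and Smad6 chr9:63953076-64022059, both on the minus strand. Id1 covers chr2:152736251-152737410 and Id3 chr4:136143497-136145755 on the plus strand, and Id2 chr12:25093799-25097140 on the minus strand. Genes on the other strand overlap 12.4% of the exon bases of Tgfb3, 4.0% of those of Bmp4 and 2.1% of those of Tgfb2. The strand setting used in counting is not given in the sources used here, so reads of those stretches could belong to either gene.

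RefSeq promoter sequences (GRCm38.p6) were found for 7 of the 10 genes, and not for Tgfb3, Smad7 and Id1. The 250 bases before the start of transcription are shown for Tgfb2 and Tgfbr2, which rose in every line, and for Tgfb1, the ligand of the same family that rose in no line. Capitals mark the letters CAGAC or, read from the other strand, GTCTG, the short box that SMAD3 and SMAD4 bind. The lines run 5′ to 3′ on the strand of the gene, from chr1:186705990-186706239 for Tgfb2 (minus strand), chr9:116175364-116175613 for Tgfbr2 (minus strand) and chr7:25686752-25687001 for Tgfb1 (plus strand).
Tgfb2: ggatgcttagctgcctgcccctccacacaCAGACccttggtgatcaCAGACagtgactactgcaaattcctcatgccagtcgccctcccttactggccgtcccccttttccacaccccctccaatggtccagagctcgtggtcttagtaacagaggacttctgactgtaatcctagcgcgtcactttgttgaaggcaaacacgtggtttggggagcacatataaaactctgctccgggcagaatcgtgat
Tgfbr2: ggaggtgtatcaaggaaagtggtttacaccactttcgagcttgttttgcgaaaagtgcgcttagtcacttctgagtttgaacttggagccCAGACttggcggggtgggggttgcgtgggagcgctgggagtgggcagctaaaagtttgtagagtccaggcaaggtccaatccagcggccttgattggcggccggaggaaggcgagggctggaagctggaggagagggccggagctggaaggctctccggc
Tgfb1: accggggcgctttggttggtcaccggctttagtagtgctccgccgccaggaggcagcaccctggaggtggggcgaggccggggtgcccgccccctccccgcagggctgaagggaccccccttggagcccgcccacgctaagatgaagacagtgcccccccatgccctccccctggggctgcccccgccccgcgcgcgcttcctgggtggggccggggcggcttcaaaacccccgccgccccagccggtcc
The box occurred 2 times in the Tgfb2 window, 1 time in the Tgfbr2 window and 0 times in the Tgfb1 window. Of 32536 distinct promoter windows of this length, 42.2% held it at least once on either strand, so a match is common. The windows also differed in base composition, with 53.6% G and C in Tgfb2, 58.4% in Tgfbr2 and 75.2% in Tgfb1, beside a median of 52.4% over all windows. Among the other windows searched, Id3 held 2 matches of the box and Smad6, Bmp4 and Id2 held 0. The letters GGCGCC, which read the same on both strands and occur in GC-rich elements bound by BMP-activated Smads, were found in 9.65% of all windows and among these genes in that of Id2. The canonical E-box CACGTG, also the same on both strands, was in 6.04% of all windows and in those of Tgfb2 and Bmp4. These letters were read from the reference and not measured in the cells, and their absence from a window says nothing of binding elsewhere. The RefSeq windows of Id3 (chr4:136143572-136143821) and Id2 (chr12:25096093-25096342) lie inside the GENCODE spans of these genes given above.

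Library totals ran from 5780062 to 11732401 counts, with a median of 9252878. Values are given as CPM, read counts scaled to library size with TMM factors from edgeR. A further 2 libraries labelled EA3 day 7 correlated more with EA2 (r = 0.967 for DMSO and 0.986 for alectinib over 14335 genes) than with EA3 (0.887 and 0.876), and they were left out of the values below. Of 6 epithelial markers, 4 to 6 were detected (over 3 counts in at least 1 library) in each group. Epcam was at 0 in every EA2 alectinib library, but the EA2 DMSO libraries also held only 3 to 7 counts of it. The list did not move as a block. Their summed CPM went from 4633 to 9253 in DMSO to 3245 to 5367 with alectinib in EA1, from 1811 to 2695 to 567 to 1169 in EA2, where the ranges did not overlap, and from 4740.4 to 6840 to 3080 to 7151 in EA3. Keratins made up most of these sums, with Krt18 in EA2 at 1618 ± 300.2 CPM in DMSO and 491 ± 175 with alectinib (SD, n = 4 days), whereas Cdh1, the E-cadherin gene, went from 65.3 ± 23.0 to 190 ± 60.1 CPM there and from 645 ± 52.0 to 1035 ± 270 CPM in EA3. The lung markers Nkx2-1, Sftpc, Sftpb and Sftpa1 summed to at most 0.974 CPM in any library. Summed CPM of 8 fibroblast markers moved with alectinib, from 9.08 to 44.1 in DMSO to 126 to 478 in EA1, from 58.5 to 71.5 to 122 to 240 in EA2 and from 10.2 to 20.2 to 84.8 to 274 in EA3. The ranges were apart in each line, and 3, 5 and 3 of the 8 were detected in DMSO and 7, 5 and 6 with alectinib in EA1, EA2 and EA3. Mean levels went from 1.35 ± 0.687 to 142 ± 89.9 CPM (SD, n = 4 days) for Col3a1 in EA1, from 45.4 ± 7.74 to 91.8 ± 54.2 for Dcn in EA2 and from 12.4 ± 3.95 to 133 ± 42.8 for Col1a1 in EA3. In DMSO, Col1a2 and Lum were at 0 in all EA1 libraries, Lum in all EA2 libraries and Pdgfrb, Lum and Thy1 in all EA3 libraries, whereas with alectinib Lum in EA2 was the single marker of the 8 at 0, and Thy1 was at or below 0.23 CPM in every library. In bulk RNA, fewer cells of a type and less RNA per cell cannot be told apart, and the part of these markers in the results below was not tested.

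In each line alectinib raised several of the 10 genes and lowered at most 1. In EA1, 5 of the 10 rose and 0 fell, beside 19.0% and 14.6% of all tested genes (edgeR's quasi-likelihood test, adjusted p below 0.05). No member had a lower level in EA1 at an unadjusted p below 0.05 either, and DESeq2 called 0. In EA2, 6 rose and 1 fell, against 13.0% and 11.3% of all genes, and in EA3 6 rose and 1 fell, against 17.5% and 15.1%. The median log2 fold change over the 10 genes was 0.91, 1.09 and 1.00 for EA1, EA2 and EA3, where that over all tested genes was 0.06, 0 and 0.07. Tgfb2, Tgfb3 and Tgfbr2 rose in all 3 lines, as did 5.78% of all tested genes. The 10 genes were chosen with earlier results of these data known, so these counts and medians are no independent comparison with all genes.

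Tgfb2, which encodes the TGF-beta2 ligand, went from nearly silent to readily detected. In EA1 DMSO cultures it measured 0.523, 0.446, 0.428 and 0.259 CPM on days 1, 2, 3 and 5, values that rest on 5, 4, 4 and 2 counts. With alectinib the same days gave 6.85, 9.55, 18.8 and 28.7 CPM. Every treated library therefore lay above every control, and the highest treated value was that of day 5. EA2 held 2.33, 2.53, 1.90 and 2.06 CPM in DMSO and 19.5, 35.7, 58.7 and 60.7 CPM in alectinib. EA3 held 2.42, 1.75, 3.56 and 1.81 CPM in DMSO and 82.7, 96.7, 80.1 and 109.6 CPM in alectinib, the highest treated levels of the 3 lines. Alectinib changed Tgfb2 by 32.9-fold, 18.2-fold and 38.5-fold in EA1, EA2 and EA3, which on the log2 scale is 5.04 (SE 0.46) for EA1, 4.18 (SE 0.37) for EA2 and 5.26 (SE 0.38) for EA3, with adjusted p-values of 8.91e-06, 9.44e-06 and 2.97e-06 from the edgeR test (SE, standard error). Among the 14264 tested genes ordered by log2 fold change it ranked 94 in EA1, 68 in EA2 and 48 in EA3. Because the EA1 controls hold so few reads, the size in that line is loosely known: on day 5 the ratio was 111, with a 95% exact interval for counting error alone of 30.5 to 922.

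Tgfb3 encodes the third ligand of the family and also rose in each line, from a higher starting level. Its CPM on days 1, 2, 3 and 5 in EA1 was 9.10, 6.68, 2.89 and 4.14 in DMSO and 17.9, 19.8, 20.9 and 28.9 in alectinib. In EA2 it was 21.0, 19.6, 24.2 and 23.0 in DMSO and 55.4, 59.9, 93.1 and 63.0 in alectinib. In EA3 the DMSO values of 7.45, 8.51, 8.58 and 9.39 CPM lay close together, whereas the alectinib values of 25.2, 47.5, 37.7 and 93.8 CPM spread widely, with day 5 highest. Treated and control libraries did not overlap in any line. Its log2 fold change in the edgeR test was 2.00 (SE 0.31) for EA1, 1.60 (SE 0.29) for EA2 and 2.42 (SE 0.30) for EA3, with adjusted p-values of 0.000409, 0.00123 and 0.0001.

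Tgfb1, the best known ligand of the family, did not follow the other two. In EA1 it measured 198, 270.1, 188 and 263 CPM in DMSO and 156, 183, 197 and 173 CPM in alectinib on days 1, 2, 3 and 5, and in EA2 82.5, 77.4, 137 and 132 and 85.2, 74.6, 96.4 and 66.8 CPM. The groups overlapped in both lines, and the log2 fold changes of -0.36 (standard error 0.24, adjusted p = 0.265) and -0.37 (standard error 0.24, adjusted p = 0.297) failed the edgeR test. In EA3 the controls climbed over the days, with 73.8, 124, 167 and 300.4 CPM, while the treated cultures gave 59.5, 64.0, 83.5 and 67.3 CPM. Tgfb1 fell there, at -1.10 on the log2 scale (SE 0.25, edgeR adjusted p = 0.00482), and it was lower on 4 of 4 days, although the treated value of day 3 exceeded the control of day 1.

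The balance among the 3 ligands can be set out per kilobase of exon, which allows levels of different genes to be compared. In EA3, mean levels in DMSO were 32.9 CPM per kilobase for Tgfb1, 2.51 for Tgfb3 and 0.412 for Tgfb2. With alectinib they were 13.6, 15.1 and 15.9 CPM per kilobase, with standard deviations over 4 days of 2.07, 8.84 and 2.36. In EA1 the order Tgfb1, Tgfb3, Tgfb2 was kept, with 35.2, 6.47 and 2.76 CPM per kilobase in alectinib after 45.6, 1.69 and 0.0714 in DMSO. In EA2 the mean of Tgfb3 went from 6.49 to 20.1 CPM per kilobase and that of Tgfb1 from 21.3 to 16.0, with Tgfb2 at 7.53 in alectinib. These are levels over the exons of all annotated transcripts, and the order between genes was not tested.

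Tgfbr2, the receptor that binds all 3 ligands directly or with a co-receptor, rose in each line. Its CPM in EA1 was 65.6, 60.8, 55.6 and 54.7 in DMSO and 146, 142, 141 and 152 in alectinib on days 1, 2, 3 and 5, a step of nearly equal size on each day. In EA2 it was 155, 144, 108 and 123 in DMSO and 424, 475, 650.4 and 706 in alectinib. In EA3 it was 145, 93.3, 146 and 90.3 in DMSO and 315, 312, 274 and 249.5 in alectinib. No treated library fell within the range of its controls, and EA2 reached the highest treated levels. On the log2 scale the edgeR test gave rises of 1.30 (SE 0.19) for EA1, 2.07 (SE 0.20) for EA2 and 1.31 (SE 0.19) for EA3, with adjusted p-values of 0.00029, 1.39e-05 and 0.000281. For Tgfb2, Tgfb3 and Tgfbr2, the rise in each line still passed under every alternative setting that tested it, with each day left out in turn among them.

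**Figure D1:**
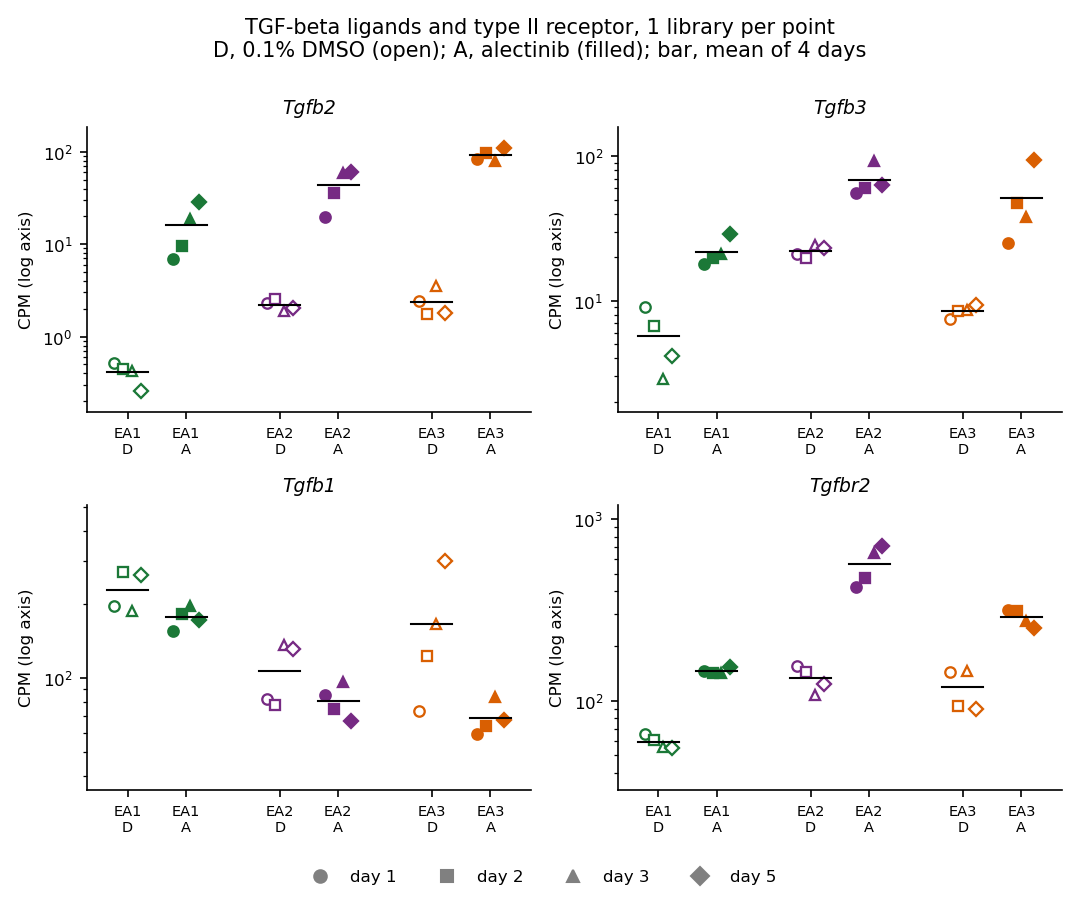
CPM (log axis) of Tgfb2, Tgfb3, Tgfb1 and Tgfbr2 in each of the 24 libraries, by line and treatment, with a marker shape for each day and a bar at the mean of 4 days. For Tgfb2, Tgfb3 and Tgfbr2 the filled alectinib points lie above the open DMSO points in every line, while those of Tgfb1 overlap them.

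Of the inhibitory Smads, Smad6 rose in EA1 and EA2 and Smad7 passed the test in no line. Smad6, the BMP-induced brake on BMP receptors, measured 40.1, 62.5, 13.4 and 42.4 CPM in EA1 DMSO cultures on days 1, 2, 3 and 5 and 63.3, 84.1, 94.2 and 100.1 CPM with alectinib. In EA2 the values were 6.0, 9.51, 5.81 and 8.33 CPM in DMSO and 21.2, 30.8, 48.6 and 24.8 CPM in alectinib, and in EA3 11.9, 25.1, 24.5 and 22.2 and 23.3, 35.4, 40.6 and 59.7 CPM. Treated and control libraries were separate in EA1 and EA2, and in EA3 the treated culture of day 1 lay inside the control range. The fitted log2 effects from edgeR were 1.25 (SE 0.34) for EA1, 2.03 (SE 0.35) for EA2 and 0.90 (SE 0.33) for EA3, with adjusted p-values of 0.0122, 0.000985 and 0.0516. The call in EA1 was lost without day 5 (adjusted p = 0.053), and under the alternatives tried the adjusted p in EA3 lay on both sides of the threshold, for example 0.0266 with DESeq2. The call in EA2 was kept under every alternative.

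Smad7, which limits both arms of the pathway, held 155 ± 72.1 CPM (mean ± SD, n = 4 days) in DMSO and 113 ± 12.6 CPM in alectinib in EA1. The corresponding means were 72.5 ± 6.92 and 81.9 ± 8.82 CPM in EA2, and 105 ± 63.5 and 78.9 ± 13.9 CPM in EA3. In EA1 and EA3 the highest control was that of day 5, at 260.4 and 190.1 CPM, and treated and control values overlapped in each line. Fitted log2 fold changes were -0.36 (95% confidence interval -0.83 to 0.11) in EA1, 0.18 (-0.29 to 0.64) in EA2 and -0.24 (-0.71 to 0.24) in EA3. The smallest of their adjusted p-values in the edgeR test was 0.214.

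Bmp4, a ligand of the BMP arm, rose in EA1 and EA3. The EA1 controls held 8.16, 11.0, 3.63 and 4.39 CPM on days 1, 2, 3 and 5 and the treated cultures 34.5, 32.6, 28.7 and 33.6 CPM, a level that hardly varied between days. EA2 started higher, with 23.4, 18.7, 20.9 and 24.4 CPM in DMSO and 32.9, 34.3, 47.0 and 26.7 CPM in alectinib, and there every treated library lay above every control. In EA3 both arms changed over the days, with 1.97, 5.71, 7.26 and 10.7 CPM in DMSO and 5.17, 9.92, 22.3 and 17.1 CPM in alectinib, and the groups overlapped although the treated library was higher on each of 4 days. By the edgeR test, its log2 effects were 2.36 (SE 0.27) for EA1, 0.67 (SE 0.25) for EA2 and 1.11 (SE 0.27) for EA3, with adjusted p-values of 3.96e-05, 0.0663 and 0.0066. The effect in EA2 passed without day 5 (adjusted p = 0.048) and when each line was fitted alone (0.0376), and in no other alternative. Mean treated levels were 32.4 ± 2.57 (SD, n = 4 days), 35.2 ± 8.52 and 13.6 ± 7.58 CPM for EA1, EA2 and EA3, from control means of 6.80 ± 3.44, 21.8 ± 2.56 and 6.41 ± 3.62 CPM.

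The 3 ID genes did not move as a block. Id3 rose in EA2 and EA3, Id2 rose in the same lines by less, and Id1 was the single member that fell in EA2. In EA2 Id3 measured 119, 161, 143 and 103 CPM in DMSO and 362, 441, 290.5 and 334 CPM in alectinib on days 1, 2, 3 and 5, and in EA3 23.2, 32.3, 20.8 and 33.0 and 78.3, 89.2, 80.7 and 154 CPM, without overlap in either line. In EA1 it measured 113, 167, 50.9 and 115 and 136, 149.5, 159 and 176 CPM, and the groups overlapped. Fitted with edgeR, log2 fold changes of Id3 were 0.58 (SE 0.23) for EA1, 1.45 (SE 0.23) for EA2 and 1.85 (SE 0.24) for EA3, with adjusted p-values of 0.0697, 0.00053 and 0.000115. Its calls in EA2 and EA3 were kept under every alternative tried.

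Id2 was far more abundant in EA1, where it measured 261, 326, 183 and 359.6 CPM in DMSO and 214, 246, 236 and 227 CPM in alectinib. In EA2 it measured 38.6, 40.1, 30.2 and 28.8 and 75.7, 88.2, 39.8 and 39.4 CPM, and in EA3 35.6, 53.8, 57.9 and 77.6 and 58.9, 72.0, 102 and 104 CPM. The treated library was higher on 4 of 4 days in EA2 and EA3, yet the ranges overlapped because the days differed. Its log2 effects by the edgeR test were -0.25 (SE 0.17) for EA1, 0.74 (SE 0.18) for EA2 and 0.60 (SE 0.17) for EA3, with adjusted p-values of 0.276, 0.0073 and 0.0176. The call in EA2 was lost without day 1 (adjusted p = 0.0622) or day 2 (0.0661), and that in EA3 without day 1 (0.0854), without day 2 (0.0562) or without the day block (0.106).

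Id1 had no fixed direction. In EA1 it held 200.2, 325, 139 and 199 CPM in DMSO and 156, 213, 247 and 245 CPM in alectinib, with the treated library higher on 2 days and lower on 2. EA2 gave 154, 209, 137 and 132 CPM in DMSO and 119.6, 125, 58.9 and 49.8 CPM in alectinib, and here every treated library lay below every control. EA3 gave 166, 322, 98.2 and 157 and 70.2, 87.0, 79.9 and 199 CPM, lower with alectinib on 3 of 4 days and higher on day 5. The edgeR test gave log2 effects of 0.04 (SE 0.32) for EA1, -0.93 (SE 0.32) for EA2 and -0.77 (SE 0.33) for EA3, with adjusted p-values of 0.941, 0.0479 and 0.0872. The fall in EA2 passed narrowly and did not hold when any single day was left out (adjusted p from 0.0552 to 0.172), when scaled by library size only (0.0539) or without the day block (0.122). The 3 E protein genes Tcf3, Tcf4 and Tcf12, whose products ID proteins bind, had log2 fold changes between -0.42 and 0.29 over the 3 lines, and their smallest adjusted p was 0.0639.

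**Figure D2:**
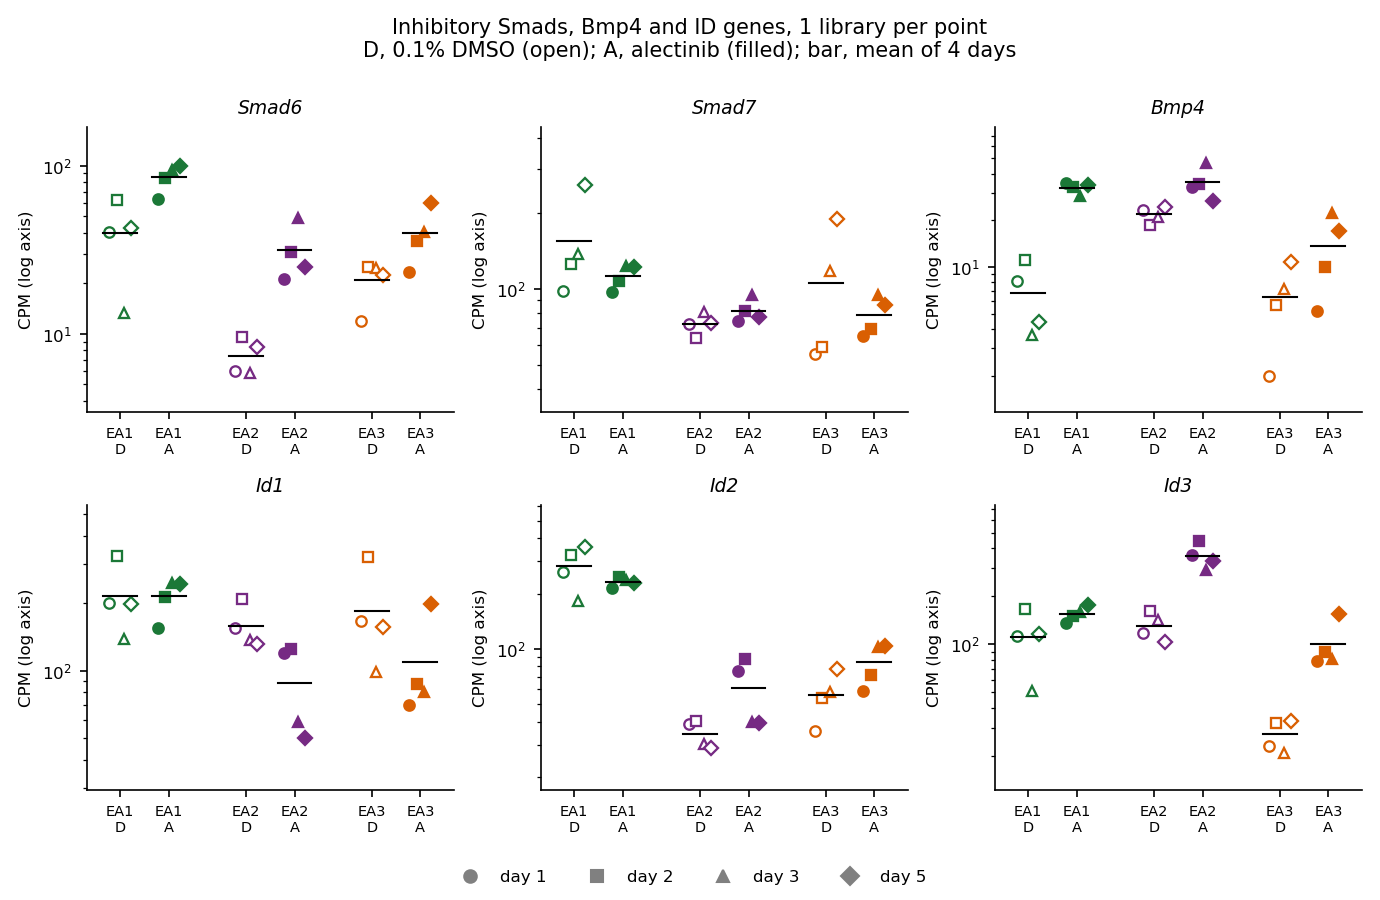
CPM (log axis) of Smad6, Smad7, Bmp4, Id1, Id2 and Id3 in each of the 24 libraries, by line and treatment, with a marker shape for each day and a bar at the mean of 4 days. Id3 is separated by treatment in EA2 and EA3, Smad6 in EA1 and EA2, and Smad7 in no line.

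Whether the alectinib effect itself differed between the lines was tested with 2 degrees of freedom. It did for 2 of the 10 genes, Bmp4 (adjusted p = 0.0267) and Id2 (adjusted p = 0.0417), beside 6.84% of all tested genes in the edgeR test. The log2 fold change of Bmp4 in EA2 minus that in EA1 was -1.69 (95% confidence interval -2.46 to -0.92, adjusted p = 0.0148), and in EA3 minus EA1 it was -1.25 (95% confidence interval -2.05 to -0.45, adjusted p = 0.117). For Id2 the difference of EA2 from EA1 was 0.99 (95% confidence interval 0.46 to 1.52, adjusted p = 0.0307) and that of EA3 from EA2 was -0.15 (95% confidence interval -0.67 to 0.38, adjusted p = 0.798). Both calls were unstable. Bmp4 was lost without day 1 (adjusted p = 0.0786), day 3 (0.107) or day 5 (0.188) and without the day block (0.186). Id2 was lost without day 1 (0.164), day 2 (0.128) or day 5 (0.137), without the day block (0.143), with library size alone (0.0643) and with at least 10 counts in every library (0.0508). For the other 8 genes the adjusted p ran from 0.0643 for Id3 to 0.429 for Smad7. Tgfb2, with a difference of 0.23 (95% confidence interval -1.45 to 1.91, adjusted p = 0.935) between EA3 and EA1, shows how wide these intervals are, and they do not show equal effects.

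**Figure D3:**
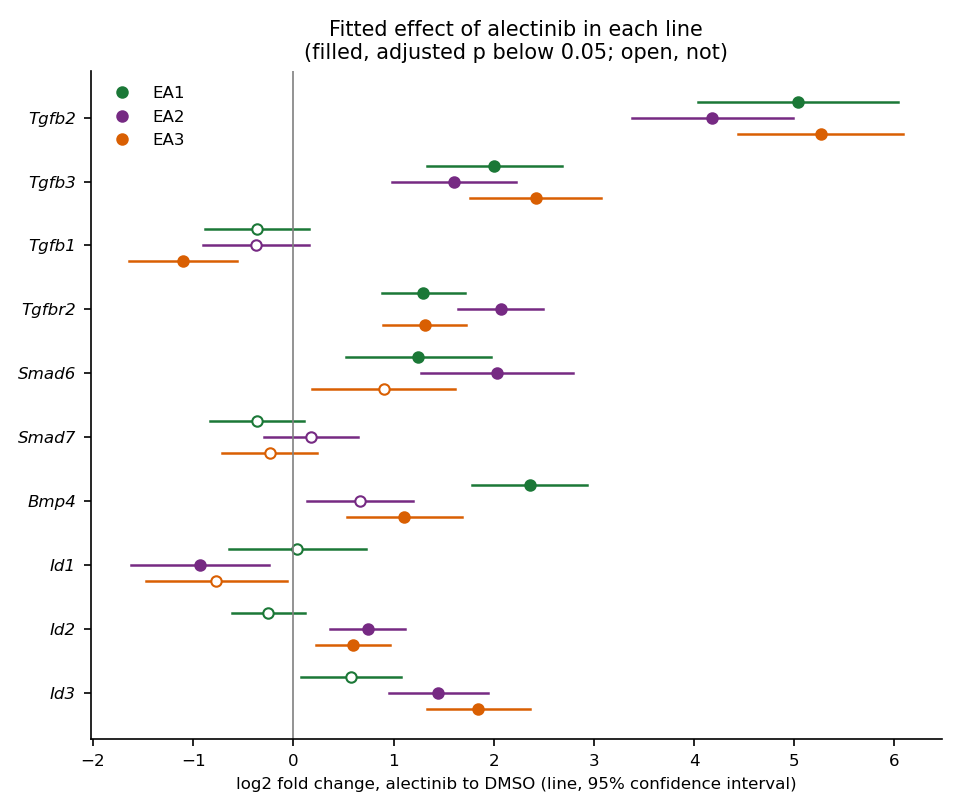
Fitted log2 fold change of each gene with alectinib in EA1, EA2 and EA3, with its 95% confidence interval, filled where the adjusted p was below 0.05. Tgfb2, Tgfb3 and Tgfbr2 lie to the right of 0 and are filled in all 3 lines, Tgfb1 is filled to the left of 0 in EA3, and the intervals of Smad7 cross 0 in each line.

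Without the drug, the lines differed in 9 of the 10 genes, beside 55.6% of the 12886 genes tested in the 12 DMSO libraries with day as a term (edgeR's quasi-likelihood test). The exception was Id1 (adjusted p = 0.123), with control means of 216 ± 78.2, 158 ± 35.1 and 186 ± 95.5 CPM (SD, n = 4 days) in EA1, EA2 and EA3, and without day 3 it passed as well (0.0434). EA1 had the highest Id2 and the lowest Tgfb2. The log2 level of Id2 in EA2 minus EA1 was -3.03 (95% confidence interval -3.56 to -2.49, adjusted p = 1.58e-06), and in EA3 minus EA1 -2.31 (95% confidence interval -2.83 to -1.79, adjusted p = 1.81e-05). For Tgfb2 the differences from EA1 were 2.35 (95% confidence interval 1.43 to 3.27, adjusted p = 0.000909) in EA2 and 2.46 (95% confidence interval 1.54 to 3.39, adjusted p = 0.000898) in EA3, whereas EA3 and EA2 did not differ beyond their spread (0.12 (95% confidence interval -0.67 to 0.90, adjusted p = 0.827)).

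Tgfbr2 was also lowest in EA1, with EA2 above EA1 by 1.12 (95% confidence interval 0.74 to 1.50, adjusted p = 0.000308) on the log2 scale and EA3 and EA2 not separated (-0.14 (95% confidence interval -0.51 to 0.24, adjusted p = 0.559)). EA2 stood out for Tgfb3 and Bmp4, which were higher there than in EA1 by 1.96 (95% confidence interval 1.29 to 2.63, adjusted p = 0.000345) and 1.67 (95% confidence interval 0.70 to 2.63, adjusted p = 0.0105), and higher than in EA3 as well (EA3 minus EA2 -1.34 (95% confidence interval -1.99 to -0.69, adjusted p = 0.00411) and -1.81 (95% confidence interval -2.79 to -0.83, adjusted p = 0.00796)). Smad6 was ordered EA1, EA3, EA2 from high to low, with EA2 below EA3 (EA3 minus EA2 1.56 (95% confidence interval 0.84 to 2.28, adjusted p = 0.00314)) and EA3 not separated from EA1 (-0.82 (95% confidence interval -1.53 to -0.12, adjusted p = 0.07)). Id3 was low in EA3, where it lay at -2.26 (95% confidence interval -2.81 to -1.71, adjusted p = 2.95e-05) against EA2, while EA2 and EA1 did not separate (0.29 (95% confidence interval -0.24 to 0.82, adjusted p = 0.366)). Tgfb1 and Smad7 were higher in EA1 than in EA2 (EA2 minus EA1 -1.18 (95% confidence interval -1.76 to -0.61, adjusted p = 0.00384) and -0.998 (95% confidence interval -1.55 to -0.45, adjusted p = 0.00787)), with EA3 between and separated from neither. Both of these genes lost the call between lines without day 2 (adjusted p = 0.0821 for Tgfb1 and 0.0680 for Smad7) or without the day term (0.0550 and 0.0739).

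Time was examined as the change per doubling of days. In the DMSO cultures 3 of the 10 genes changed, Tgfb1 (adjusted p = 0.00481), Smad7 (adjusted p = 0.00288) and Bmp4 (adjusted p = 0.0451), beside 11.8% of all tested genes (edgeR, 3 degrees of freedom). All 3 rose in EA3, by a log2 slope of 0.86 (95% confidence interval 0.56 to 1.16, adjusted p = 0.00341) for Tgfb1, 0.80 (95% confidence interval 0.52 to 1.09, adjusted p = 0.00368) for Smad7 and 1.01 (95% confidence interval 0.45 to 1.57, adjusted p = 0.0238) for Bmp4. Smad7 also rose in EA1, by 0.58 (95% confidence interval 0.30 to 0.86, adjusted p = 0.0306), while its EA2 slope was 0.04 (95% confidence interval -0.25 to 0.33, adjusted p = 1). Each of these joint calls was lost without day 1, day 2 or day 5, with adjusted p-values from 0.0621 to 1. That of Bmp4 was also lost when scaled by library size only (0.0575) and with day in place of log2 day (0.122). Day and time since plating cannot be told apart in this design.

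The alectinib effect did not pass a test of change over days for any of the 10 genes, beside 0.140% of all tested genes in the edgeR test, although 5 of the 10 had an unadjusted p below 0.05, as did 9.54% of all tested genes. Those 5 were Tgfb1, Tgfb2, Tgfb3, Tgfbr2 and Smad7, with adjusted p-values from 0.204 to 0.501. The slope of the Tgfb2 effect per doubling of days was 1.28 (95% confidence interval 0.47 to 2.09, adjusted p = 0.418) in EA1, 0.86 (95% confidence interval 0.33 to 1.40, adjusted p = 1) in EA2 and 0.14 (95% confidence interval -0.40 to 0.68, adjusted p = 0.898) in EA3. Without day 3 the test passed for Tgfb2 (adjusted p = 0.0373) and Tgfb3 (0.0235). Across the 12 daily log2 ratios, which share libraries and depth between genes, the ratios of Tgfb2 and Tgfb3 had a Pearson correlation of 0.82 and those of Id2 and Id3 of 0.77, while Id1 and Id3 had 0.02. These values describe 12 pairs of libraries from 3 lines and carry no test.

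**Figure D4:**
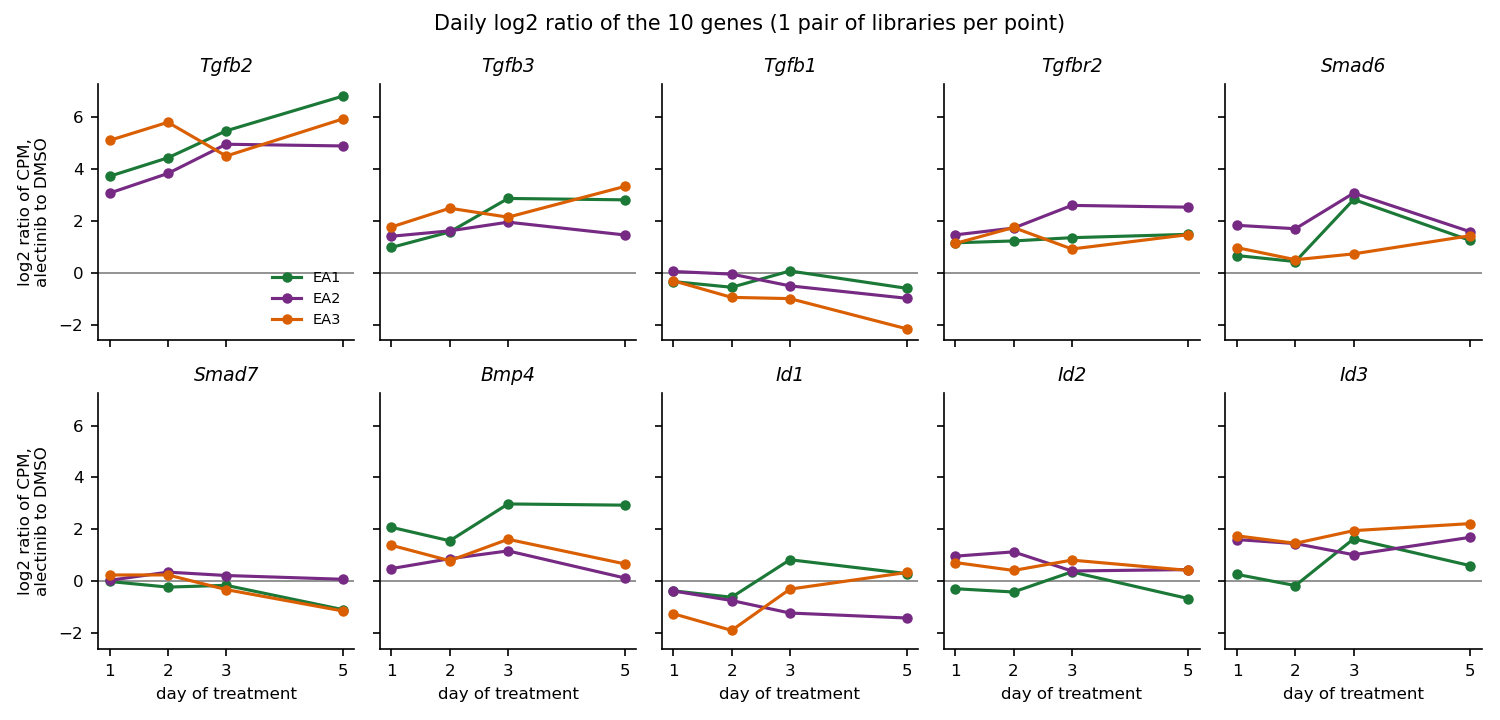
Log2 ratio of CPM in alectinib to DMSO for each of the 10 genes on days 1, 2, 3 and 5, with a line for each of EA1, EA2 and EA3 and 1 pair of libraries per point. The ratios of Tgfb2 run from 3.06 to 6.80 and those of Tgfbr2 from 0.91 to 2.59, all above 0, while those of Id1 fall on both sides.

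The other genes of the pathway were listed by role, also with earlier results of these data known. Apart from the 10, 97 genes were in the table and 77 had enough reads, of which 28 rose and 7 fell in EA1, 23 rose and 13 fell in EA2, and 23 rose and 12 fell in EA3, a share to be read against the percentages of all genes given above. Their median log2 fold change was 0.43, 0.19 and 0.10 in the same order. Of the 77, 17 passed in all 3 lines and each kept 1 direction, with 12 higher and 5 lower, beside 5.78% and 4.23% of all tested genes. The 12 include Lrrc32. The genes counted as higher hold Lrrc32 in each line, Acvrl1 in EA1, Inhbb in EA2 and EA3 and Nog in EA3. These had too few reads to be tested in the DMSO libraries alone and entered the test only with the alectinib libraries.

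Of the genes of latency and activation, 6, 6 and 7 of 10 tested rose for EA1, EA2 and EA3, while 0, 1 and 0 fell. Of all tested genes, 19.0%, 13.0% and 17.5% were higher and 14.6%, 11.3% and 15.1% lower in these lines. Each count of higher genes includes Lrrc32, whose few DMSO reads are given below. Thbs1, whose product thrombospondin 1 can release active TGF-beta from its latent complex, rose by 4.54, 3.45 and 3.16 on the log2 scale in EA1, EA2 and EA3. It was also abundant, with means of 4445, 8641 and 3480.4 CPM with alectinib after 213, 698 and 394 CPM in DMSO. Itgb6 and Itgb8 encode the beta subunits of the integrins that activate latent TGF-beta, and they rose by 3.95, 2.59 and 2.88 and by 3.17, 2.09 and 2.89, from mean control levels of at most 4.83 CPM. Ltbp4, a latent TGF-beta binding protein, rose by 0.76, 0.71 and 0.85. Lrrc32, which encodes the cell surface dock GARP for latent TGF-beta, passed in all 3 lines, but its DMSO libraries held 6, 2 and 9 counts in all in EA1, EA2 and EA3, so that it had enough reads for the test only through its alectinib libraries, with 105, 72 and 162 counts. In EA2, 1 alectinib library held 60 of the 72 and another held 0. No fold is given for it.

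Among extracellular antagonists of BMP and activin, 7, 4 and 5 of 10 tested rose for EA1, EA2 and EA3, and 0, 1 and 2 fell. Beside these counts stand 19.0%, 13.0% and 17.5% of all tested genes that were higher and 14.6%, 11.3% and 15.1% that were lower. The 5 in EA3 include Nog, which had too few reads to be tested in the DMSO libraries alone. Nbl1, a secreted BMP antagonist, rose by 0.95, 1.06 and 0.86, and Crim1, a membrane protein that binds BMPs, by 0.91, 2.22 and 1.84 on the log2 scale in EA1, EA2 and EA3. Grem1, which encodes the BMP antagonist gremlin, differed between the lines (adjusted p = 0.00074, edgeR, 2 degrees of freedom), with a log2 fold change of 1.35 that did not pass in EA1 and falls of -2.89 in EA2 and -5.33 in EA3. Chrd, which encodes chordin, also differed (adjusted p = 0.0459 by the same edgeR test), with log2 fold changes of 1.54, 0.46 and -1.30.

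Of 5 BMP ligand genes tested outside the 10, 1, 0 and 1 rose in EA1, EA2 and EA3 and 2 fell in each line. Of 6 genes of activins and other ligands, 1, 2 and 2 rose and 1 fell in each line. The rises in EA2 and EA3 include Inhbb, which had too few reads to be tested in the DMSO libraries alone. In EA2 it held 1 DMSO count in all. Beside these short lists, 13.0% to 19.0% of all tested genes were higher and 11.3% to 15.1% were lower in a line. Bmp2 fell in each line, with log2 fold changes of -2.24, -2.79 and -2.54, and so did Bmp7, with -2.46, -3.65 and -1.87, so that Bmp4 went the opposite way in EA1 and EA3. Bmp2 held few reads in EA2 and EA3. Its DMSO libraries there held 11 to 52 and 2 to 59 counts, and those with alectinib 3 to 7 and 1 to 9. Gdf15, a stress-induced ligand of the superfamily, had log2 fold changes of -3.01, -2.46 and -3.48, all past the threshold. Between lines the effect differed for Inhba, which encodes the activin A subunit (-0.16, 2.76 and 0.78), and for Gdf11 (2.01, 0.00 and 0.86). The type I receptor gene Tgfbr1 differed as well, with 0.43, -0.96 and -0.46, and fell in EA2, the line with the largest log2 fold change of Tgfbr2. Tgfbr3, the co-receptor betaglycan, had 0.14, -1.52 and -2.08. Acvrl1, which encodes the type I receptor ALK1, had a log2 fold change of 2.01 in EA1, while in DMSO and alectinib it held 21 and 5 counts in all in EA2 and 5 and 7 in EA3, so its difference between lines rests on few reads. Bmpr1b, a BMP type I receptor, had 3.07 in EA1, where the controls held 9 counts in all, and 0.63 in EA2, with 9 and 11 counts in EA3.

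Among Smads and intracellular inhibitors, Smad9, which encodes SMAD8, rose by 1.51 in EA1 and 3.10 in EA2. In EA3 it passed with 98 counts in alectinib against 1 in DMSO, a ratio of 82 with a counting interval of 14.4 to 3270. The corepressor Ski rose by 0.59, 0.90 and 0.55 and Ldlrad4, an inhibitor of SMAD2 and SMAD3 phosphorylation, by 0.82, 0.96 and 1.18, whereas the corepressor Tgif1 had log2 fold changes of -1.24, -1.29 and -1.31 and fell in each line. Pmepa1, a TGF-beta-induced inhibitor, differed between the lines with 0.17, 1.91 and 0.64, and Bambi, a decoy receptor, with 1.05, -1.13 and -2.07.

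Of 12 TGF-beta response genes tested outside the 10, 3 rose and 1 fell in EA1, 5 rose and 1 fell in EA2, and 3 rose and 4 fell in EA3. With 12 genes, these counts are to be read against the 19.0%, 13.0% and 17.5% of all tested genes that were higher and the 14.6%, 11.3% and 15.1% that were lower. Ccn2, a matrix protein gene induced by TGF-beta and by YAP, rose by 1.71, 1.78 and 1.59, and Lif, a cytokine of the interleukin-6 family, had -2.35, -2.06 and -1.60 and fell in each line. Tgfbi had 1.75, -1.02 and -2.74 and Tgm2, which encodes tissue transglutaminase, 2.69, 0.19 and 1.25, and both differed between the lines. Of 8 BMP response genes tested outside the 10, 5 rose and 0 fell in EA1, 2 rose and 2 fell in EA2, and 2 rose and 1 fell in EA3. Atoh8, a transcription factor gene induced by BMP, rose in each line, by 2.02, 3.78 and 4.85, while Hey1 (3.48, -0.88 and -0.41) and Gata2 (1.94, -1.17 and -0.28) rose in EA1 and differed between the lines. Ltbp2, listed with latency, differed too, with 1.41, 0.78 and 3.17.

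**Figure D5:**
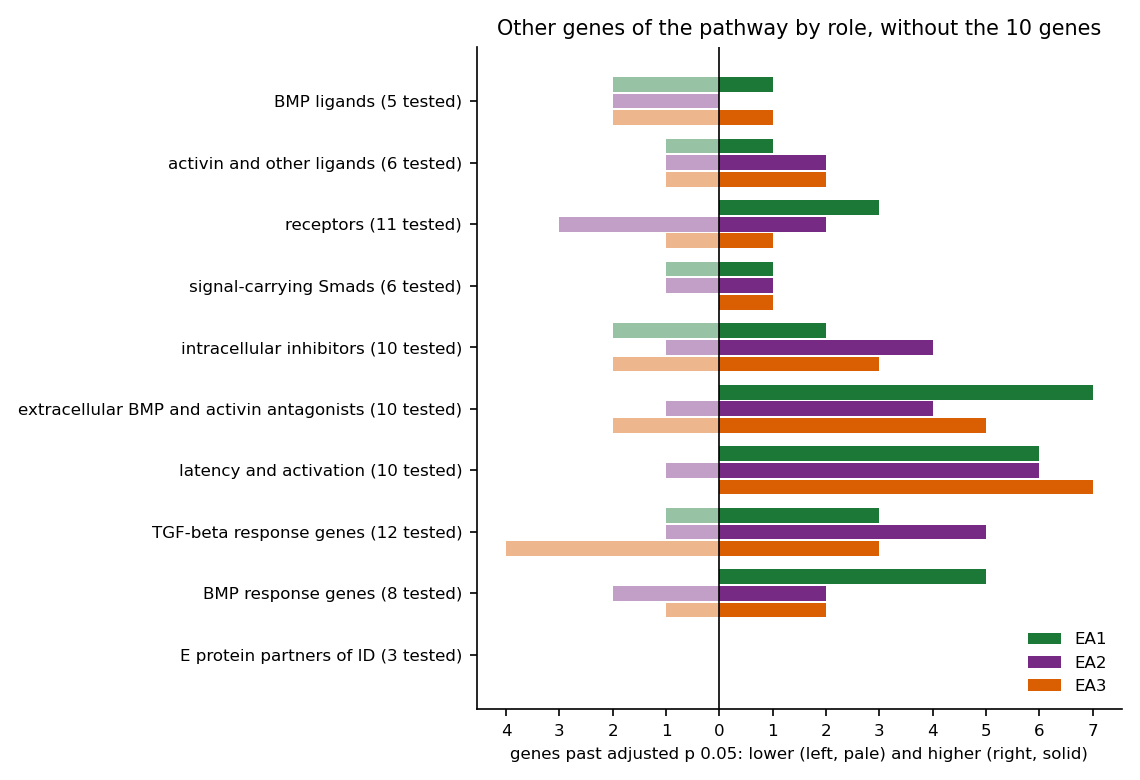
Number of other pathway genes past the adjusted p threshold in each role list, lower to the left and higher to the right, by line, with the number tested beside each list. Latency and activation genes reach 6, 6 and 7 of 10 to the right in EA1, EA2 and EA3, and the 3 E protein genes have no bar. Each of these latency counts includes Lrrc32, which had enough reads only through its alectinib libraries. Of all tested genes, 19.0%, 13.0% and 17.5% were higher in EA1, EA2 and EA3.

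The genes whose 12 daily log2 ratios ran most like those of a member were sought among 9925 genes with an average log2 CPM of at least 3. For Tgfb2 they were Icam1 (Pearson r = 0.92), Ssx2Ip (0.92) and Cpped1 (0.90), and for Tgfbr2 Dffa (0.94), Ptcd1 (0.92) and Dse (0.92). For Bmp4 they were Kif1Bp (0.96), Epcam (0.95) and Scarf2 (0.94). Of these, Epcam was at 0 in the EA2 alectinib libraries and at 3 to 7 counts in those of EA2 DMSO. Smad7 ran most like Crtc2 (0.95), Fam129B (0.94) and Dedd2 (0.94), and Id1 most like Ifitm3 (0.94), Tmem223 (0.93) and Aspscr1 (0.93). The size of the effect can be quite unlike, since the log2 fold changes of Ssx2Ip were -0.46, -0.54 and 0.20 in EA1, EA2 and EA3, against 5.04, 4.18 and 5.26 for Tgfb2. Each was picked as the highest of 9925 values over 12 ratios, and no test was made.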

How the data were processed

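Poly(A) RNA of EA1, EA2 and EA3 cultures was made into stranded libraries and sequenced as paired reads by the authors, who checked quality with FastQC, trimmed adapters with bbduk, aligned to mm10 with STAR and deposited raw counts per gene from its internal counter. The annotation release and strand setting are not given in the sources used here. Rows without a gene name (24 of 55415, at most 0.201% of counts) were left out. Deposited counts of the 24 libraries of days 1 to 5 were fitted in R 4.3.3 with edgeR 4.0.16 (TMM, filterByExpr, robust quasi-likelihood test) with 12 blocks of line and day and an alectinib effect per line, and p-values were adjusted by Benjamini-Hochberg over all genes tested (threshold 0.05). DMSO levels were fitted in 12 libraries, and slopes on log2 day in 24. The labels give the shared day of each block, and deviations of its 2 libraries correlated between -0.273 and 0.594. With 1 library per line, treatment and day, the alectinib p-values rest on how the difference between treatments varied over days. Those for DMSO levels rest on the spread left after the day term, and those for slopes on the spread about the trend. CPM are TMM-scaled, and gene correlations used log2 CPM with a prior count of 2. Exon lengths are from GENCODE vM21 and promoters from RefSeq. Counting intervals are exact (Clopper-Pearson, 95%) and cover counting error only. Alternatives used DESeq2 1.42.0, other scaling and filters, no block, 26 libraries, single lines, day itself and each day left out. The main edgeR fits of effects, DMSO levels and slopes, and the DESeq2 effect of alectinib in EA1, were checked on simulated counts. The other calculations were not. The 10 genes, the gene lists and the naming rule (all 10, pathway genes that passed in 3 lines or differed between lines, and the 3 genes most alike for 5 of the 10) were chosen with earlier results of these data known. Figures were drawn in Python 3.11.15 with matplotlib 3.10.9. A genotype difference between the lines is not reported here.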

Additional observations from a re-analysis of the deposited data

Results flagged for a closer look

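Of 60 groups of 4 libraries (10 genes in 3 lines and 2 treatments), 2 held a library far from the other 3 by Dixon's test, where chance gives about 1 in 20. Both were the EA3 alectinib culture of day 5. Id1 measured 198.7 CPM there against 70.2 to 87.0 on the other days, and Id3 154.0 CPM against 78.3 to 89.2.

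The alectinib effect differed between EA1, EA2 and EA3 for Bmp4 (adjusted p = 0.0267) and for Id2 (adjusted p = 0.0417) by edgeR, and both calls were lost in several alternatives.

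The 2 day 7 libraries, labelled EA3 but closer to EA2 in correlation, were used only in the alternative with all 26 libraries. In the alectinib library of this pair, 6 of the 10 genes lay above every DMSO library labelled EA3, as did 22.0% of 14335 genes. EA2 and EA3 also differed without the drug, where the mean of Id3 was 130.4 CPM in EA2 and 28.0 in EA3 and that of Tgfb3 was 21.8 and 8.67. Tgfb2 measured 55.8 CPM against 1.89 in the day 7 DMSO library, Tgfb3 77.6 against 19.1, Tgfbr2 679.8 against 86.0, Smad6 25.7 against 5.54, Bmp4 36.9 against 19.0 and Id3 436.6 against 56.9. Each is 1 pair of libraries with no replicate. For Smad6 the highest EA3 control, at 25.7 CPM to 3 digits, was level with the treated value.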

How the results depend on the processing

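Of 30 effects of alectinib (10 genes in 3 lines), 19 passed the threshold, and in 225 refits under alternative settings 213 stayed past it, 12 did not and 0 changed sign. Of 132 refits of the other 11 effects, 14 passed and 7 changed sign. Id1 in EA1, at 0.04, became -0.020 with no filter on low counts, -0.0037 without the replicate block, -0.039 with all 26 libraries, -0.0019 with each line fitted alone, -0.26 without day 3 and -0.10 without day 5, and Smad7 in EA3 became 0.060 without day 5.

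The single member lower in EA2, Id1, went to 0 members with library size alone, without the replicate block and without any 1 day (0 to 0 over the 4 days). In EA3 the 1 member lower became 2 with DESeq2, with no filter, with all 26 libraries and without day 5 (range 1 to 2), Id1 being added. The 2 members that differed between lines became 1 with library size alone, 6 with no filter, 1 with at least 10 counts in every library, 0 without the replicate block and 0 to 2 without a day. The change of the effect over days passed for 0 to 2 members without a day, and the change in DMSO for 0 to 4.

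Over all genes, those higher in EA1 numbered 2711, or 1745 with at least 10 counts in every library, and 1436 to 2181 without a day. Without a day, 1360 to 1907 were lower in EA1, 1157 to 1349 higher and 985 to 1306 lower in EA2, and 1447 to 2053 higher (1647 without day 5) and 1389 to 1836 lower in EA3. The effect differed between lines for 976 genes, for 1955 with DESeq2, 2698 with no filter, 398 with all 26 libraries and 211 to 792 without a day (318 without day 5). Changes of the effect over days ran from 0 to 361 genes and those in DMSO from 0 to 2755 (36 without day 2 and 17 without day 5). Library size alone moved the median log2 fold change of all genes from 0.06 to 0.16 in EA1, from 0 to -0.044 in EA2 and from 0.07 to 0.18 in EA3, and the share of calls that were higher from 56.6% to 64.6%, 53.5% to 48.3% and 53.6% to 64.7%. Without a day the fits have fewer libraries, and the cause of the other shifts was not tested. Tgfb2 was not tested with at least 10 counts in every library, and its EA1 controls limit its precision.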
